A study of Homo sapiens with 4 samples.

Results

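EJ and T24T, a pair of human bladder cancer cell lines, were compared without any circular RNA, in the libraries of cells transfected with the vector. Genes were taken up when the higher of the 2 vector libraries held 50 or more counts, which left 13310 of the 56303 genes in the deposited count table, of 27202 with at least 1 count in either vector library. The quantity followed throughout is the log2 ratio of T24T over EJ after each count was divided by its library's total. All other data of the series are the 2 libraries of the same lines transfected with hsa_circ_0008399 (called circ here), and their values are set beside those of the vector libraries as another look at each line. There was 1 library per line and transfection, so 4 in all, and the table columns write T24 where the sample titles write T24T.

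EJ is a long-established bladder carcinoma line that cell line registries list as a derivative of T24. T24T was derived from T24 as a more tumorigenic variant. The origin of both was not checked here. An activated HRAS gene was first cloned from cells of this family. Nothing in the labels gives the passage, the number of cultures or the vector's sequence, and each line is represented by 1 library per transfection. A bladder carcinoma can keep a luminal programme (uroplakins, GATA3, PPARG), a basal and squamous programme (KRT5, KRT14, TP63) or lose both for a mesenchymal state, in which vimentin, N-cadherin and the ZEB and SNAI repressors replace E-cadherin. Tumour cells also differ in the cytokines they release, many of which are genes that NF-kB switches on, and in how much glucose they turn to lactate.

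Total counts were 15639289 in EJ vector and 16864247 in T24T vector, and 14703455 and 18057768 in the circ libraries of EJ and T24T. Genes of the mitochondrial genome took 5.40% of the counts in EJ vector and 5.05% in T24T vector, against 4.01% and 3.08% in the circ libraries. Of the 13310 genes, 11004 matched a protein-coding gene of GENCODE release 29. Each fold below is followed in brackets by its exact 95% binomial interval (Clopper-Pearson), which covers counting error only, since PCR copies are not separate molecules and no culture was repeated. Where the lower library held 0 counts, the fold was taken against a floor of 3 counts in that library and is written as at least. That bound is set by the floor, and the exact interval reaches lower, to 909-fold for CSF3 against 1119-fold. Pairs of counts without a library name are those of EJ vector and T24T vector, in that order, and counts marked with circ follow the same order of lines.

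Most genes had like levels in both lines. The median log2 ratio was -0.06, and 11913 genes (89.5%) lay within 2-fold. At 2-fold or more, 896 genes (6.73%) were higher in T24T and 501 (3.76%) in EJ, and at 10-fold or more the counts were 181 and 53. The shares of 6.73% and 3.76% are the base for the 2-fold counts of list members below. Just above the minimum, at 50 to 59 counts, 22.4% of 442 genes were 2-fold apart, and just below it, at 40 to 49 counts, 23.8% of 521. In the circ libraries 1381 of the 1397 2-fold genes (98.9%) had the same sign, and 1034 (74.0%) were again 2-fold apart, 740 of them higher in T24T and 294 in EJ. Across the 13310 genes the ratios of the vector pair and the circ pair had a Pearson correlation of 0.931 and a Spearman correlation of 0.825, as a description over genes, which are not independent replicates. The line difference was tested over all 4 libraries with transfection as a term, by the edgeR quasi-likelihood test with Benjamini-Hochberg adjustment, which leaves 1 residual degree of freedom. It called 3870 of 17689 genes (21.9%) higher in T24T and 3445 (19.5%) higher in EJ. Without the transfection term the counts were 1944 and 1248, and with DESeq2 1776 and 1441. The 17689 genes tested include genes under the minimum of 50 counts. Their shares are therefore not a like base for list members at the minimum. Because the circ libraries are not repeats of the vector condition, an edgeR p given below belongs to the lines over both transfections. Such a p also uses the vector libraries whose ratios are given, so it is no separate support for those ratios.

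**Figure D1:**
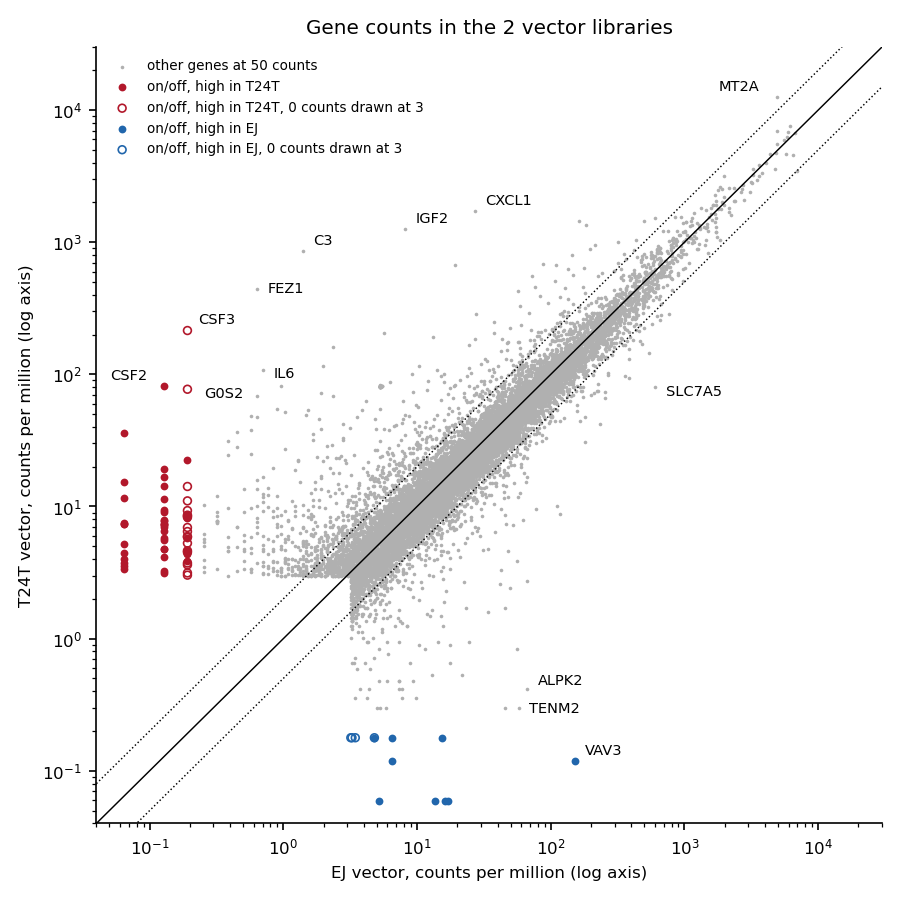
CPM (counts scaled to the library total) of each of the 13310 genes in EJ vector (horizontal, log axis) and T24T vector (vertical, log axis), with the line of equality and dotted lines at 2-fold. Red points are the 60 genes with 50 or more counts in T24T and 3 or fewer in EJ, blue points the 13 of the reverse kind, and open points genes with 0 counts in the lower library, drawn at 3 counts. The cloud follows the diagonal, with CSF3, C3, FEZ1, IGF2 and CXCL1 far above it and VAV3, TENM2 and ALPK2 far below.

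**Figure D2:**
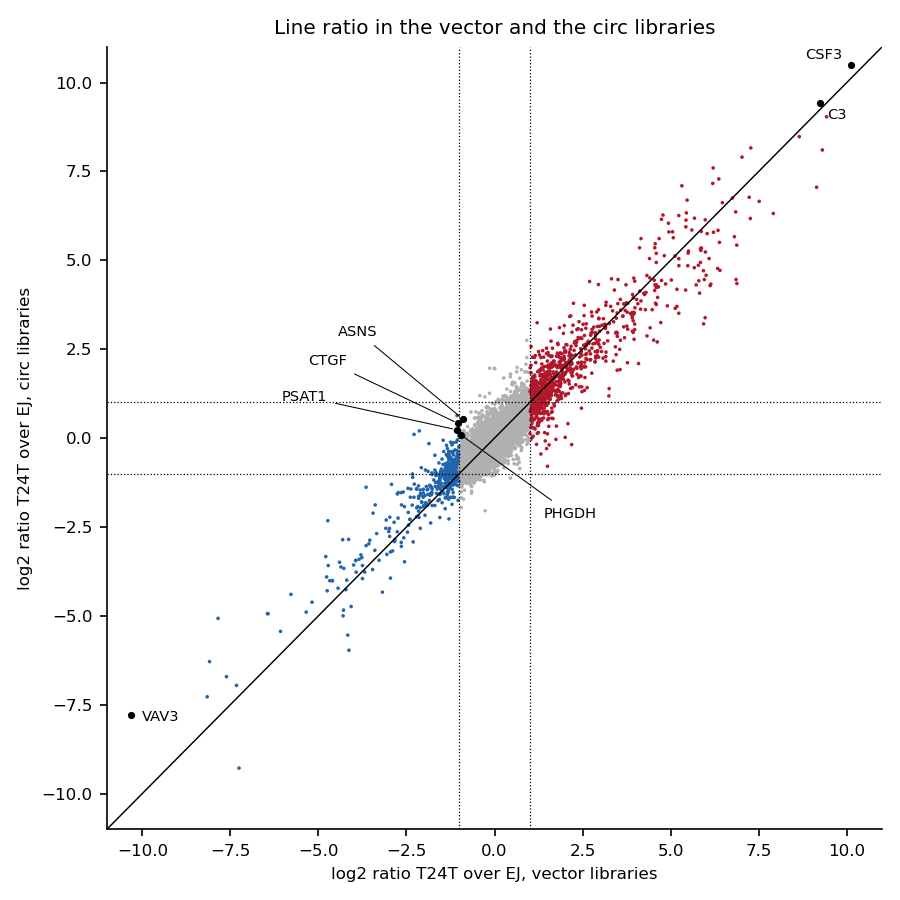
Log2 ratio of T24T over EJ in the vector libraries (horizontal) and in the circ libraries (vertical) for each gene, red where 2-fold higher in T24T vector and blue where 2-fold higher in EJ vector. Dotted lines mark 2-fold and the solid line equality. The points lie along the line of equality, and of the labelled genes ASNS, CTGF, PHGDH and PSAT1 lie below 0 on the horizontal axis and above 0 on the vertical.

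GATA3 and UPK3A of the luminal urothelial programme and KRT5 and TP63 of the basal one were at or near 0 counts in both lines. Both lines are labelled as bladder cancer. Of 26 luminal genes 9 reached the minimum, with 3 at 2-fold higher in T24T, 1 in EJ and a median log2 ratio of -0.09 (0.07 in the circ pair). Over all genes studied the 2-fold shares were 6.73% and 3.76%. GATA3, a luminal master regulator, had 1 count in each vector library, UPK3A had 0, and UPK2, another uroplakin of the bladder surface, had 23 and 30 counts. Of 28 basal and squamous genes only KRT15, CD44 and EGFR reached the minimum, and KRT5 and TP63, which define basal urothelium, had 0 counts in both. The keratins of simple epithelium were present. KRT7 had 6981 and 6093 counts, a ratio within 2-fold. KRT8 had 2259 counts in EJ vector and 13405 in T24T vector (2164 and 14341 with circ), and was 5.50-fold [5.26 to 5.76] higher in T24T (edgeR adjusted p = 7.35e-22). KRT18, its partner in the filament, had 4653 and 10220 counts and was 2.04-fold [1.97 to 2.11] higher. Both T24T libraries lay above both EJ libraries for KRT8 and KRT18, and reads of these keratins cannot be told from those of their processed pseudogenes. Of the transcription factors of the luminal state, ELF3 was 3.97-fold [3.19 to 4.98] higher in T24T (101 and 432 counts), while FOXA1 was 2.90-fold [1.83 to 4.75] higher in EJ (70 and 26 counts). PPARG stayed under the minimum, with 18 and 44 counts.

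Epithelial adhesion genes were split between the lines. Of 42 genes 29 reached the minimum, 10 of them 2-fold higher in T24T and 6 in EJ, with a median log2 ratio of -0.03 (0.31 in the circ pair), against -0.06 over all 13310 genes. E-cadherin was near absent from both, with 0 counts in EJ vector and 3 in T24T vector (0 and 1 with circ) for CDH1. T24T held low but higher levels of 3 epithelial genes. EPCAM, an epithelial surface antigen, had 7 and 117 counts, 15.5-fold [7.29 to 39.4] apart. SPINT1, an inhibitor of epithelial surface proteases, had 7 and 119 counts, and ESRP1, a splicing regulator of epithelia, 9 and 82 counts. The tight junction gene CLDN4 was also higher in T24T (2.85-fold [2.28 to 3.59]). On the EJ side were PPL, encoding the desmosomal linker periplakin (10362 and 4733 counts, 2.36-fold [2.28 to 2.44]), AP1M2, an epithelial sorting adaptor (751 and 200 counts, 4.05-fold [3.46 to 4.76]), and DSC2, a desmosomal cadherin (2.12-fold [1.85 to 2.43]). LAMB3 and LAMA3, genes of laminin chains that anchor epithelium to its basement membrane, differed in direction. LAMB3 had 3322 and 16155 counts, 4.51-fold [4.34 to 4.68] higher in T24T. LAMA3, the alpha chain, had 259 and 39 counts and was 7.16-fold [5.10 to 10.3] higher in EJ. The edgeR test called LAMB3 higher in T24T and LAMA3 higher in EJ (edgeR adjusted p = 5.98e-20 and 8.69e-15).

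Mesenchymal genes also differed member by member. Of 34 listed 16 reached the minimum, 6 of them 2-fold higher in T24T and 3 in EJ, with a median of 0.54. The shares over all genes studied were 6.73% and 3.76%. Vimentin was high and alike, at 129 RPKM in EJ vector and 142 in T24T vector. N-cadherin had the largest gap of the list on the EJ side: CDH2 had 1728 counts in EJ vector and 169 in T24T vector (1501 and 142 with circ), 11.03-fold [9.41 to 12.99] higher in EJ. ZEB1, a repressor of E-cadherin, was 2.17-fold [1.93 to 2.44] higher in EJ (875 and 435 counts), whereas its relative ZEB2 was 3.82-fold [2.45 to 6.18] higher in T24T (25 and 103 counts). SNAI2, encoding the repressor Slug, had 2 counts in EJ vector and 132 in T24T vector (8 and 91 with circ), which gave a ratio of 61.2-fold [16.6 to 511]. T24T was also higher in FN1, encoding fibronectin (2887 and 22587 counts, 7.26-fold [6.98 to 7.54]), in MYL9, a myosin light chain of contractile cells (12 and 231 counts, 17.9-fold [10.03 to 35.1]), and in NT5E, encoding the ecto-nucleotidase CD73 (4.05-fold [3.67 to 4.47]). TWIST1, PRRX1 and CDH11 had 0 counts in all 4 libraries, and the collagen-binding proteoglycan genes DCN and LUM likewise. In the plot of lineage genes the EJ and T24T points separate for most rows and overlap for VIM and KRT7.

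**Figure D3:**
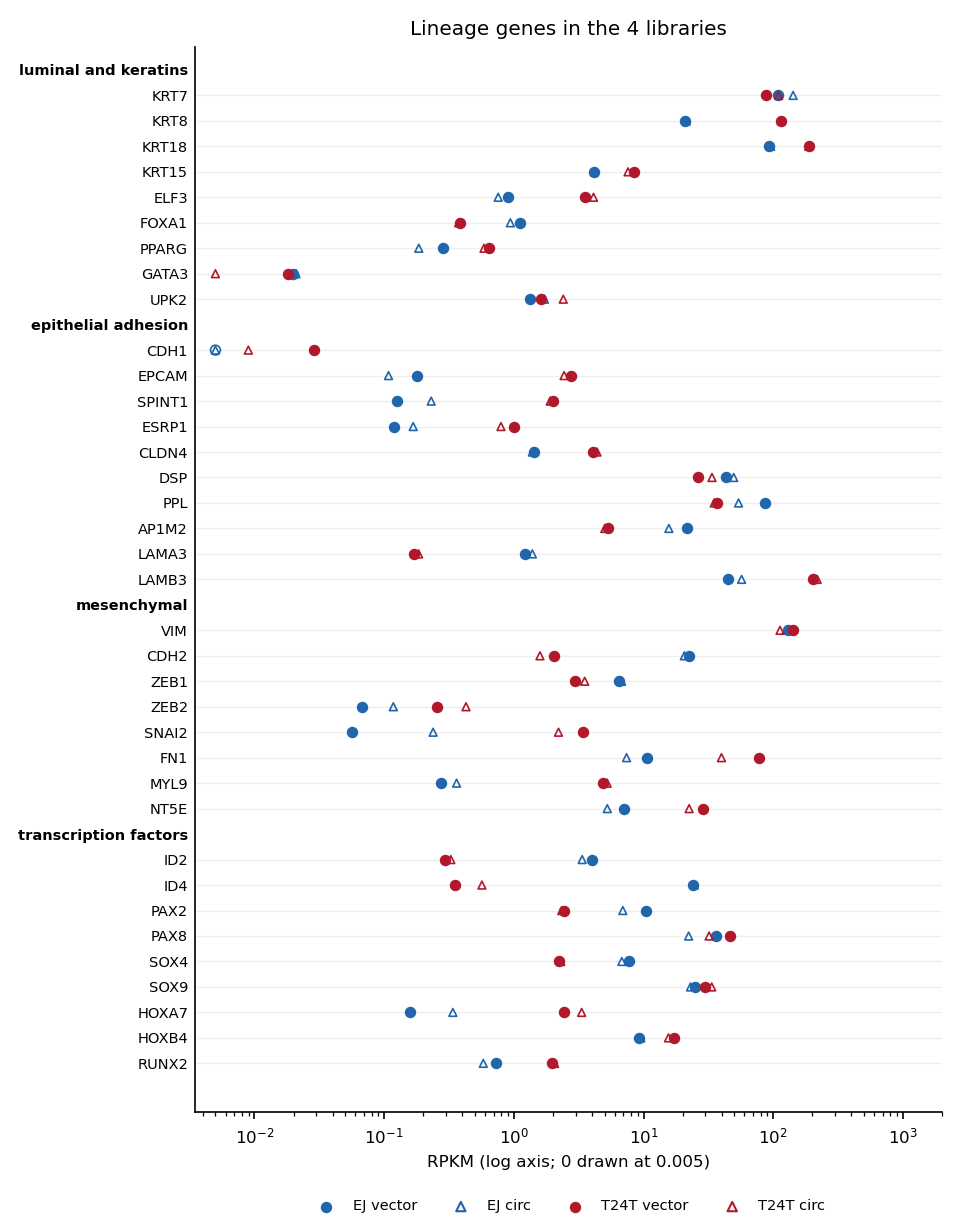
RPKM (log axis, 0 drawn at 0.005) of lineage genes in the 4 libraries, EJ in blue and T24T in red, vector libraries as filled circles and circ libraries as open triangles. Each point is 1 library. KRT8, SNAI2 and FN1 have both T24T libraries to the right of both EJ libraries, while CDH2, ID4 and LAMA3 have them to the left.

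Of developmental transcription factors at the minimum, 12 of 16 HOX genes and 13 of 24 further lineage factors lay within 2-fold, against 89.5% of all genes studied. Of 39 HOX genes 16 reached the minimum, and 4 of them were 2-fold higher in T24T and 0 in EJ. HOXA7 had 6 and 99 counts (15.3-fold [6.79 to 42.7]), beside neighbours such as HOXA3 (125 and 141 counts) and HOXA9 (95 and 113 counts) that lay within 2-fold. HOXB2, HOXD10 and HOXD11 were the other HOX genes past 2-fold, by 2.09-fold [1.79 to 2.44], 2.44-fold [1.78 to 3.40] and 2.70-fold [1.66 to 4.55]. Of 47 further lineage factors 24 reached the minimum, 6 of them 2-fold higher in T24T and 5 in EJ. PAX8, a factor of kidney and other urogenital epithelia, was abundant in both at 36.05 RPKM in EJ vector and 46.04 in T24T vector. PAX2, its paralog, had 1027 counts in EJ vector and 258 in T24T vector (635 and 264 with circ) and was 4.29-fold [3.74 to 4.94] higher in EJ. Among the ID genes, which encode inhibitors of bHLH factors, ID4 had 876 counts in EJ vector and 14 in T24T vector (847 and 24 with circ), 67.5-fold [39.997 to 124] higher in EJ. ID2 had 139 and 11 counts, 13.6-fold [7.38 to 27.9] higher in EJ, while ID1 and ID3 lay within 2-fold. SOX4 was 3.49-fold [2.99 to 4.08] higher in EJ, and RUNX1 and RUNX2 were 2.96-fold [2.45 to 3.59] and 2.70-fold [2.13 to 3.46] higher in T24T.

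Chemokines had the highest median of all lists. Of 24 listed 8 reached the minimum. Of these 7 were 2-fold higher in T24T and 0 in EJ, against 6.73% and 3.76% of all genes. The median log2 ratio was 5.40 (4.92 in the circ pair), against -0.06 over all genes. Summed over the list, they took 55.7 CPM (counts scaled to the library total) in EJ vector and 2613 in T24T vector. CXCL1, a neutrophil attractant, had 423 counts in EJ vector and 28936 in T24T vector (432 and 19949 with circ), 63.4-fold [57.6 to 69.99] higher in T24T. CXCL8, encoding interleukin-8, had 303 counts in EJ vector and 11405 in T24T vector (254 and 10850 with circ), 34.9-fold [31.1 to 39.3] higher. CXCL2 had 37 and 2720 counts (68.2-fold [49.3 to 97.04]). CCL20, which attracts cells bearing CCR6, had 6 and 526 counts (81.3-fold [37.1 to 223]). For each of these the lower T24T library lay above the higher EJ library. CXCL3 (8 and 227 counts) and CXCL6 (2 and 110 counts) followed at lower counts, and CX3CL1 had 17 and 62 counts. CXCL16 was the member at the minimum that stayed within 2-fold, with 73 and 81 counts. CXCL1, CXCL2 and CXCL3 are near-identical copies side by side on chromosome 4, so the split of reads among them is uncertain. 

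Cytokines and colony-stimulating factors were tilted the same way. Of 30 listed 15 reached the minimum, 10 were 2-fold higher in T24T and 2 in EJ, against 6.73% and 3.76% of all genes. The median was 2.55, against -0.06 over all genes. CSF3, encoding G-CSF, the growth factor of neutrophils (chromosome 17, 40015361 to 40017813, hg38), had 0 counts in EJ vector and 3619 in T24T vector (1 and 1776 with circ). It was at least 1119-fold higher in T24T against the floor of 3 counts, with an exact interval from 909-fold upward. The EJ libraries held at most 1 count of it. CSF2, encoding GM-CSF (chromosome 5, 132073790 to 132076170), had 2 counts in EJ vector and 1366 in T24T vector (4 and 1351 with circ), 633-fold [175 to 5235] higher in T24T. IL6 (chromosome 7, 22725884 to 22732002) had 11 counts in EJ vector and 1821 in T24T vector (25 and 2220 with circ), 154-fold [85.6 to 308] higher in T24T. Per length, CSF3, CSF2 and IL6 stood at 96.7, 103 and 52.2 RPKM in T24T vector. TNF, the inflammatory ligand that itself activates NF-kB, had 37 and 1155 counts (28.9-fold [20.9 to 41.3]). IL1B, another such activator, had 2 and 81 counts, and TNFSF15 had 77 and 655 counts. IL11, a relative of IL6, had 8 and 77 counts (8.93-fold [4.31 to 21.4]). On the EJ side IL18 had 723 and 243 counts and was 3.21-fold [2.77 to 3.73] higher, and IL7 was 2.57-fold [2.02 to 3.28] higher. LIF, another IL6 relative, lay within 2-fold (2956 and 4299 counts).

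The promoters of these genes were read for the letters of the NF-kB binding site. Promoter sequences came from RefSeq, build GRCh38.p14, for the 250 bases before each start site, and the motif was either GGGNNNTTCC or GGAATTTCC, on either strand. Both forms overlap where a site begins with GGGAATTTCC. A match was found in 5.81% of all 27305 promoters of the table and in 6.83% of the 7584 promoters of the genes studied, taking 1 gene per set of genes with shared exon bases. It was found in 10.6% of 480 promoters of genes 2-fold higher in T24T, in 16.5% of 91 at 10-fold, in 5.88% of 306 of genes 2-fold higher in EJ and in 7.32% of 41 at 10-fold. Both T24T shares take in chemokine and cytokine genes such as CXCL1, CXCL8 and IL6. They are therefore not separate from the count of those genes that follows. Of the 17 chemokine and cytokine genes 2-fold higher in T24T, 14 had a promoter in the table and 8 of these held a match. Among the 8 were CXCL1, CXCL2, CXCL3, CXCL6 and CXCL8, related genes on chromosome 4, so their matches are not separate cases. The share among chemokine and cytokine genes not higher in T24T was not counted, so the match cannot be tied to the line. A match is a string of letters and does not show that a factor binds. The 60-base windows around the match are printed for the 4 chemokines with the most counts and for IL6, 5′ to 3′ along the gene's strand, and capitals mark the match.
CXCL1, chr4:73869289-73869348, + strand: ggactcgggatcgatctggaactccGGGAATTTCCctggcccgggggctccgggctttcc
CXCL2, chr4:74099239-74099298, - strand: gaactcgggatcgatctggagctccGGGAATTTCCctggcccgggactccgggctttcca
CXCL8, chr4:73740452-73740511, + strand: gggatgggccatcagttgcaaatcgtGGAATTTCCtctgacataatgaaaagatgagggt
CCL20, chr2:227813738-227813797, + strand: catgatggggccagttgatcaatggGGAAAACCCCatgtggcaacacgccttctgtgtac
IL6, chr7:22727102-22727161, + strand: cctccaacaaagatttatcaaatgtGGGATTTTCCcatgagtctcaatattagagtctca
CXCL1 and CXCL2 held the same 10 letters at 79 and 78 bases before the start, and the flanks of those copies are nearly the same. CXCL8 held the shorter form at 91 bases before the start. CCL20 held the reverse complement of the first form, and IL6 a first form 73 bases before its start. These letters were not found in the 250-base windows of CSF2, TNF, IL1B, IL11, TNFSF9 and TNFSF15.

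A few single genes known as NF-kB targets or regulators follow, chosen after their values were seen, so their direction says nothing of the pathway. NFKBIA, encoding the inhibitor that holds NF-kB in the cytoplasm, had 923 counts in EJ vector and 5558 in T24T vector (1154 and 7136 with circ), 5.58-fold [5.21 to 5.99] higher in T24T. TNFAIP3, encoding the inhibitor A20, had 122 counts in EJ vector and 1053 in T24T vector (339 and 2443 with circ), 8.004-fold [6.63 to 9.74] higher. Its 60-base promoter window, with the match in capitals, stands for the same letters outside the cytokine genes.
TNFAIP3, chr6:137867167-137867226, + strand: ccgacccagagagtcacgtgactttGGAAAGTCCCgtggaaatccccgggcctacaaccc
IRAK2, a kinase of interleukin-1 receptor signalling, had 163 and 1967 counts (11.2-fold [9.53 to 13.2]) and TNIP1, a partner of A20, had 3082 and 14934 counts (4.49-fold [4.32 to 4.67]). NFKB2, a subunit gene that is itself a target, was 1.98-fold [1.87 to 2.10] higher, and RELA, the main activating subunit, was at a like level (1515 and 1475 counts, edgeR adjusted p = 0.898). Of genes that inflammatory signals are known to induce, values are given for ICAM1, a leukocyte adhesion receptor (585 and 4188 counts, 6.64-fold [6.09 to 7.25]), SOD2, the mitochondrial superoxide dismutase (1698 and 11326 counts, 6.19-fold [5.88 to 6.51]), and PTX3, a soluble pattern receptor also chosen after its value was seen (89 and 3473 counts, 36.2-fold [29.3 to 45.2]). The acute-phase genes SAA1 (0 and 140 counts) and SAA2 (2 and 152 counts) appeared in T24T alone at the minimum, with reads that near-identical copies and the readthrough gene SAA2-SAA4 share. NF-kB activity itself was not measured in these libraries.

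Growth factors and their binding proteins separated in both directions. Of 60 angiogenic and other growth factors 34 reached the minimum, 13 of them 2-fold higher in T24T and 11 in EJ, with a median of -0.19 that turned to 0.18 in the circ pair. Over all genes studied the 2-fold shares were 6.73% and 3.76%. IGF2, a fetal insulin-like growth factor, had 127 counts in EJ vector and 21208 in T24T vector (59 and 20748 with circ), 155-fold [130.1 to 186] higher in T24T. The readthrough gene INS-IGF2 (1 and 610 counts) shares exons with it and is no separate observation. The carriers of insulin-like growth factors did not follow a single direction. IGFBP2 had 54 counts in EJ vector and 0 in T24T vector (31 and 0 with circ), at least 19.4-fold higher in EJ, IGFBP3 had 154 and 6 counts (27.7-fold [12.4 to 76.6] higher in EJ), and IGFBP4 had 1188 and 7738 counts (6.04-fold [5.68 to 6.43] higher in T24T). Among EGF receptor ligands, EREG had 2 and 281 counts, a ratio of 130.3-fold [35.7 to 1081]. HBEGF had 771 and 3794 counts (4.56-fold [4.22 to 4.94]) and TGFA 473 and 2017 counts (3.95-fold [3.58 to 4.38]), both higher in T24T, while AREG stayed within 2-fold (3119 and 5845 counts). EGFR, their receptor, was 1.80-fold [1.73 to 1.87] higher in EJ (6798 and 4083 counts).

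The angiogenic factor VEGFA had 1480 counts in EJ vector and 5826 in T24T vector (1286 and 7541 with circ), 3.65-fold [3.45 to 3.87] higher in T24T. MDK, encoding the growth factor midkine, had 236 and 1639 counts (6.44-fold [5.62 to 7.41]), and INHBA, the activin A subunit, 2309 and 9596 counts (3.85-fold [3.68 to 4.03]). NOG, encoding the BMP antagonist noggin, was 6.81-fold [5.45 to 8.60] higher in T24T, and WNT5A, a non-canonical WNT ligand, had 0 counts in EJ vector and 78 in T24T vector (0 and 72 with circ). Vasoactive and guidance factors were among those higher in EJ. EDN1, the precursor of endothelin-1, had 529 counts in EJ vector and 27 in T24T vector (431 and 47 with circ), 21.1-fold [14.4 to 32.4] higher in EJ. SPP1, encoding osteopontin, had 101 and 3 counts (36.3-fold [12.1 to 179]). SEMA3A, a repulsive axon guidance ligand, had 669 and 56 counts (12.9-fold [9.80 to 17.2]), and SLIT2, the ligand of ROBO receptors, 715 and 146 counts (5.28-fold [4.41 to 6.35]). FGFBP1, which releases FGFs from the matrix, was 6.67-fold [5.25 to 8.58] higher in EJ, and FGF2 2.49-fold [1.97 to 3.17]. FGFR1, a receptor for FGF2, was also higher in EJ (243 and 48 counts, 5.46-fold [3.99 to 7.60]). The complement gene C3 (chromosome 19, 6677704 to 6730562) had 22 counts in EJ vector and 14475 in T24T vector (14 and 11932 with circ), 610.2-fold [403 to 974] higher in T24T, and LCN2, an iron-siderophore binding protein, had 0 counts in EJ vector and 100 in T24T vector (0 and 205 with circ), at least 30.9-fold higher. The plot of secreted factors shows most chemokine and cytokine rows and the C3 row far apart between the lines, with T24T higher. IL18 and the guidance genes SEMA3A and SLIT2 are among the rows with EJ higher.

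**Figure D4:**
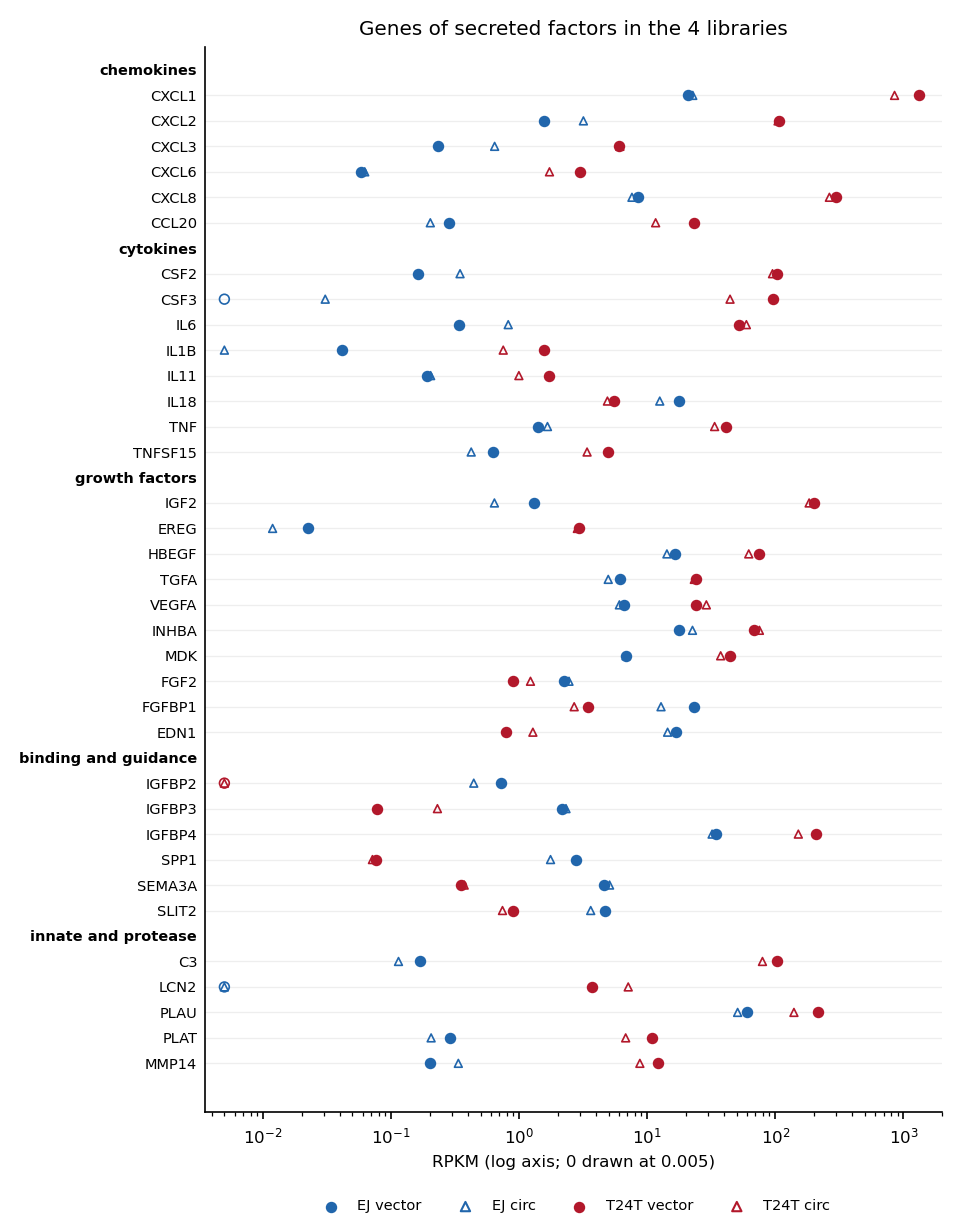
RPKM (log axis, 0 drawn at 0.005) of genes of secreted factors in the 4 libraries, EJ in blue and T24T in red, vector libraries as filled circles and circ libraries as open triangles. Each point is 1 library. In the chemokine rows both T24T libraries lie to the right of both EJ libraries, and in the IGFBP2, IGFBP3, SPP1, SEMA3A and SLIT2 rows to the left.

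Matrix, protease and adhesion genes had large gaps in both directions. Of 53 matrix genes 31 reached the minimum, with 9 at 2-fold higher in T24T and 7 in EJ. COL7A1, the anchoring fibril collagen, had 44 and 557 counts (11.7-fold [8.63 to 16.3] higher in T24T). EDIL3, an integrin ligand, had 710 and 29 counts (26.4-fold [18.2 to 39.7] higher in EJ), COL8A1 380 and 16 counts (25.6-fold [15.6 to 45.3]) and FBLN1, encoding fibulin-1, 3653 and 710 counts (5.55-fold [5.12 to 6.02]). Of 61 extracellular proteases and inhibitors 28 reached the minimum, 10 of them 2-fold higher in T24T and 4 in EJ. The shares over all genes studied were 6.73% and 3.76%. MMP14, a membrane-bound collagenase, had 14 counts in EJ vector and 921 in T24T vector (22 and 706 with circ), 61.01-fold [36.2 to 112] higher in T24T. The plasminogen activators were both higher in T24T: PLAT had 30 and 1215 counts (37.6-fold [26.2 to 55.9]) and PLAU 2760 and 10779 counts (3.62-fold [3.47 to 3.78]), as was PLAUR, the receptor of the latter (2.44-fold [2.28 to 2.61]). Of 35 integrins and adhesion receptors 17 reached the minimum, with 6 higher in T24T and 3 in EJ. ITGA11, a collagen receptor subunit, had 26 and 599 counts (21.4-fold [14.4 to 32.98]), ITGB8 had 93 and 8 counts (12.5-fold [6.10 to 29.9] higher in EJ), and PCDH7, a protocadherin, had 240 and 3 counts, a ratio of 86.3-fold [29.2 to 421] in favour of EJ.

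Genes that were all but silent in 1 line were counted as on/off when the higher library held 50 or more counts and the lower 3 or fewer. There were 60 such genes (0.451%) with T24T high and 13 (0.0977%) with EJ high, 49 and 11 of them protein-coding. In the circ libraries 42 of the 60 and 4 of the 13 met the same limits. Taking 1 gene per set with shared exon bases left 53 and 12. Beside CSF3 and CSF2, the largest on the T24T side was G0S2, an inhibitor of the fat-cell lipase ATGL, with 0 counts in EJ vector and 1301 in T24T vector (0 and 1314 with circ), at least 402-fold. KIAA1217 had 0 and 239 counts (at least 73.9-fold), THBD, the endothelial anticoagulant thrombomodulin, had 1 and 197 counts, and CLEC4E, a pattern receptor best known from macrophages, had 0 and 186 counts (at least 57.5-fold). CRACR2A, ARHGEF4, GRB10 and KCNJ15 had 324, 191, 158 and 145 counts in T24T vector and 2, 2, 2 and 0 in EJ vector. FEZ1, an adaptor of neuronal transport, missed the limit but had 1 of the largest folds, with 10 counts in EJ vector and 7419 in T24T vector (11 and 7095 with circ), 688-fold [374 to 1435]. EMP1, an epithelial membrane protein, likewise had 15 and 1366 counts (84.5-fold [51.02 to 151]).

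On the EJ side VAV3, a guanine exchange factor of small GTPases (chromosome 1, 107571160 to 107965144), had 2369 counts in EJ vector and 2 in T24T vector (1622 and 9 with circ). It was 1277-fold [353 to 10553] higher in EJ. NEBL, an actin-binding protein, had 253 and 1 counts (273-fold [48.5 to 10818]), and NEDD9, a scaffold of focal adhesions, 214 and 1 counts (231-fold [40.98 to 9157]). POPDC3 had 81 and 1 counts, and KIRREL3, an immunoglobulin adhesion molecule, 75 and 0 counts (at least 26.96-fold). NRCAM, a neuronal adhesion molecule, had 50 and 0 counts, and FILIP1 74 and 3 counts. Above 3 counts in T24T, and so outside the limit, were TENM2, a teneurin adhesion protein (906 and 5 counts, 195-fold [83.4 to 603]), ALPK2, an alpha-kinase (1042 and 7 counts, 161-fold [77.6 to 400.2]), and SDC2, encoding syndecan-2 (708 and 5 counts, 153-fold [65.1 to 472]). All of these EJ genes had the same direction in the circ libraries.

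Some large differences may be the same reads under many names. All 22 protocadherin gamma genes (chromosome 5, 141330571 to 141512981) were 2-fold higher in T24T, with log2 ratios from 3.78 to 3.96 and 82 to 205 counts in EJ vector against 1364 to 3214 in T24T vector. Of these 22, 20 lay within 5% of the T24T median of 1365 counts. These genes share their last exons, and their near-equal counts could come from the same reads counted for each gene, though the counting rule is not given in the sources used here. The protocadherin alpha genes next to them, 16 in number, had 0 counts in all 4 libraries. Other overlapping and antisense genes could share reads in the same way, and the use of strand is not given in the sources used here. Keeping 1 gene per set with shared exon bases left 10361 genes, of which 729 were 2-fold higher in T24T and 418 in EJ.

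Glycolytic genes mostly had higher values in T24T, 19 of 27 of them within 2-fold. Of 35 listed 27 reached the minimum, 7 of them 2-fold higher in T24T and 1 in EJ, against 6.73% and 3.76% of all genes. The median was 0.56 (0.71 in the circ pair). The edgeR test called 21 of the 27 higher in T24T and 3 higher in EJ. Its shares over all genes tested, 21.9% and 19.5%, include genes under the minimum and are not a like base. LDHA, which turns pyruvate to lactate, had 9441 counts in EJ vector and 25697 in T24T vector (7851 and 26565 with circ), 2.52-fold [2.47 to 2.58] higher in T24T. SLC16A3, the lactate exporter MCT4, had 381 counts in EJ vector and 1886 in T24T vector (289 and 1506 with circ), 4.59-fold [4.11 to 5.14] higher. SLC2A1, the glucose transporter GLUT1, had 1176 and 2488 counts (1.96-fold [1.83 to 2.10]), and HK2, which traps glucose in the cell, 205 and 478 counts (2.16-fold [1.83 to 2.56]). All 4 pyruvate dehydrogenase kinases, which hold pyruvate out of the citrate cycle, had positive ratios, from 0.81 for PDK1 to 1.93 for PDK2. PFKFB3, which makes the activator of phosphofructokinase, ran the other way (5824 and 3023 counts, 2.08-fold [1.99 to 2.17] higher in EJ). Its circ pair held 5600 and 5400 counts, which is within 2-fold.

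None of 49 nuclear respiratory chain genes at the minimum and none of the 13 mitochondrially encoded mRNAs was 2-fold apart, with medians of -0.05 and -0.18. The edgeR test called 11 of the nuclear genes higher in T24T and 3 in EJ, and 3 and 6 of the mitochondrial ones. Its shares over all genes tested (21.9% and 19.5%) include genes under the minimum, so they are not a like base. Of 28 citrate cycle genes ACO1, the cytosolic aconitase and iron sensor, was the 1 past 2-fold (1103 and 2513 counts, 2.11-fold [1.97 to 2.27]). Of 23 genes of fatty acid oxidation and ketone bodies 1, BDH1, was higher in T24T (97 and 308 counts).

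Genes of fatty acid synthesis and lipid storage were split. Of 40 listed 29 reached the minimum, 6 of them 2-fold higher in T24T and 2 in EJ, against 6.73% and 3.76% of all genes. FABP5, a fatty acid carrier, had 1364 counts in EJ vector and 11517 in T24T vector (1479 and 12266 with circ), 7.83-fold [7.40 to 8.29] higher in T24T. MGLL, the monoglyceride lipase, had 147 and 1234 counts (7.78-fold [6.56 to 9.30]), and PLIN2, the lipid droplet coat protein, had 16 counts in EJ vector and 155 in T24T vector (23 and 399 with circ), 8.98-fold [5.36 to 16.1]. G0S2 belongs to the same list. In EJ the stearoyl-CoA desaturase gene SCD was 2.66-fold [2.58 to 2.76] higher (11940 and 4832 counts), and the elongase ELOVL6 2.16-fold [1.88 to 2.48] (630 and 315 counts). SREBF1, the regulator of both, had a log2 ratio of -0.84. The 23 cholesterol genes all stayed within 2-fold, with a median of -0.24, 5 called higher in T24T and 11 in EJ by edgeR. The edgeR shares over all genes tested (21.9% and 19.5%) include genes under the minimum and are not a like base.

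Genes of amino acid metabolism and transport passed 2-fold in EJ alone. Of 44 genes 27 reached the minimum, 0 were 2-fold higher in T24T and 6 in EJ, against 6.73% and 3.76% of all genes. The median was -0.34 (-0.16 in the circ pair), against -0.06 over all genes. SLC7A5, the large neutral amino acid transporter LAT1, had 9473 counts in EJ vector and 1345 in T24T vector (10666 and 5310 with circ), 7.59-fold [7.17 to 8.05] higher in EJ. SLC3A2, its heavy chain, had 3523 counts in EJ vector and 1272 in T24T vector (5872 and 4439 with circ), 2.99-fold [2.80 to 3.19] higher in EJ. SLC7A11, the cystine importer that uses the same heavy chain, had 479 counts in EJ vector and 142 in T24T vector (361 and 398 with circ). In the T24T circ library all 3 were above T24T vector, and the SLC7A11 ratio of the circ pair was -0.16 on the log2 scale, against -1.86 in the vector pair. GLUL, glutamine synthetase, was steady between transfections, with 527 counts in EJ vector and 80 in T24T vector (444 and 75 with circ), 7.10-fold [5.61 to 9.10] higher in EJ (edgeR adjusted p = 2.83e-17). BCAT1, the cytosolic branched-chain aminotransferase, had 132 counts in EJ vector and 21 in T24T vector (167 and 69 with circ), 6.78-fold [4.26 to 11.3]. ASNS, asparagine synthetase, had 1400 counts in EJ vector and 808 in T24T vector (1431 and 2548 with circ), so its direction turned with the transfection. PHGDH and PSAT1, early enzymes of serine synthesis, turned in the same way, with log2 ratios of -0.96 and -1.07 in the vector pair and 0.10 and 0.23 in the circ pair.

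All 4 metallothioneins at the minimum, of 10 listed, were 2-fold higher in T24T, with a median of 1.72. MT2A, a zinc and copper buffer and among the 10 genes with the highest RPKM in each vector library, had 77147 counts in EJ vector and 211756 in T24T vector (47722 and 156975 with circ), 2.55-fold [2.52 to 2.57] higher in T24T. MT1E had 679 and 3109 counts (4.25-fold [3.91 to 4.62]), and as metallothionein copies are alike the split between them is uncertain. Of 43 glutathione, NRF2 and aldo-keto reductase genes 30 reached the minimum, 7 of them 2-fold higher in T24T and 1 in EJ. The shares over all genes studied were 6.73% and 3.76%. HMOX1, which breaks down heme, had 120 counts in EJ vector and 724 in T24T vector (261 and 792 with circ), 5.60-fold [4.61 to 6.85], FTH1, the ferritin heavy chain, 7796 and 24529 counts (2.92-fold [2.84 to 2.99], pseudogene reads not separable), and AKR1B1, aldose reductase, 1078 and 4931 counts (4.24-fold [3.97 to 4.54]). The heme transporter gene SLC48A1 was 2.90-fold [2.71 to 3.10] higher in EJ. CYP24A1, which inactivates vitamin D, had 95 and 13 counts (7.88-fold [4.39 to 15.3] higher in EJ), and PTGS2, encoding COX-2, had 4 and 91 counts (21.1-fold [7.96 to 79.1] higher in T24T).

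**Figure D5:**
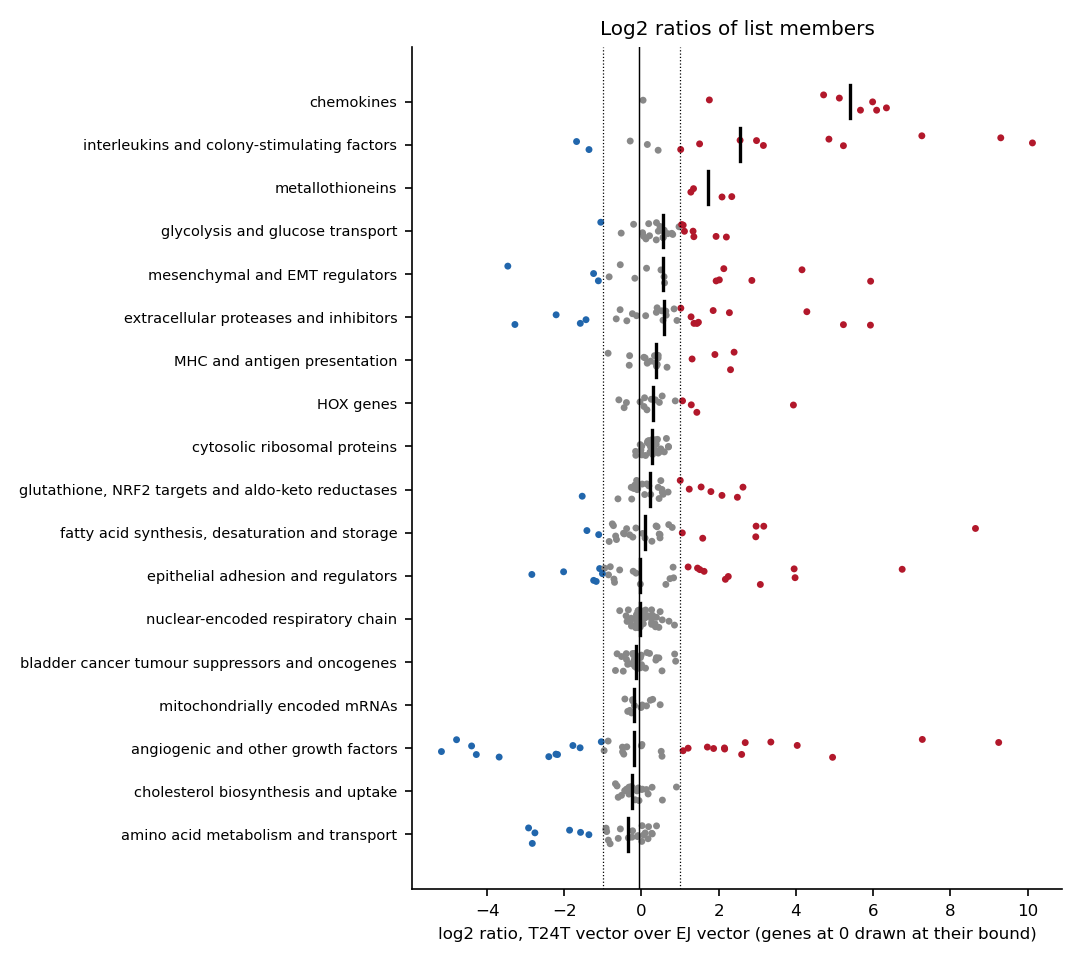
Log2 ratio of T24T vector over EJ vector (horizontal) for the members of 18 gene lists that reached 50 counts, 1 point per gene, red at 2-fold higher in T24T and blue at 2-fold higher in EJ. Black bars are list medians, the thin line is the median of all 13310 genes (-0.06) and dotted lines mark 2-fold. Chemokines have the highest median (5.40) and amino acid genes the lowest of these lists (-0.34), while respiratory chain, cholesterol and bladder cancer genes lie between the dotted lines.

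Of 38 genes recurrently altered in bladder cancer, all 34 at the minimum were within 2-fold, with a median of -0.13. HRAS had 1646 counts in EJ vector and 1959 in T24T vector (1497 and 1957 with circ), a T24T over EJ ratio of 1.10-fold [1.03 to 1.18] (edgeR adjusted p = 0.0829). CCND1 (6727 and 6354 counts), CDKN2A (881 and 882 counts) and MDM2 (739 and 760 counts) were each alike. CDKN1A, encoding p21, was 1.85-fold [1.69 to 2.03] higher in T24T and MYC 1.37-fold [1.27 to 1.47]. Expression does not show whether a gene carries a mutation, and no variants were read. None of 43 matched cancer-testis antigens reached the minimum. Of 28 cell cycle genes RRM2, a subunit of ribonucleotide reductase, was the 1 past 2-fold (4633 and 10240 counts, 2.05-fold [1.98 to 2.12]). Of 35 ribosomal protein genes 0 were past 2-fold, with a median of 0.28, although edgeR called 28 of them higher in T24T. The edgeR share over all genes tested (21.9%) includes genes under the minimum and is not a like base.

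Of 33 MHC and related genes 19 reached the minimum, 4 of them 2-fold higher in T24T and 0 in EJ. Over all genes studied the 2-fold shares were 6.73% and 3.76%. HLA-E had 1326 and 3547 counts (2.48-fold [2.33 to 2.64]), PSMB8, an immunoproteasome subunit, 103 and 415 counts (3.74-fold [3.005 to 4.68]), and CD274, encoding PD-L1, 16 counts in EJ vector and 91 in T24T vector (15 and 178 with circ), 5.27-fold [3.08 to 9.62]. Of 42 interferon-induced genes 23 reached the minimum, 4 of them 2-fold higher in T24T and 2 in EJ. Their median log2 ratio was 0.43 in the vector pair and 0.06 in the circ pair. IFITM3, which blocks virus entry, had 12 and 167 counts (12.9-fold [7.19 to 25.5] higher in T24T), whereas IFIT1 (62 and 26 counts) and OAS1 (77 and 26 counts) were higher in EJ. HLA genes are near-identical copies, so their counts are uncertain.

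With 1 gene per set of shared exons, chromosome medians ran from -0.27 on chromosome 10 (407 genes, -0.29 in the circ pair) to 0.23 on chromosome 3 (570 genes, 0.20 in the circ pair). In windows of 41 neighbouring genes the lowest was on chromosome 10 from 5684838 to 22329542 (hg38), with a median of -0.73 in the vector pair and -0.78 in the circ pair. The highest was on chromosome 4 from 56466915 to 78544269, with 0.67 and 0.48, a stretch that holds the CXCL genes and EREG. DNA copy number was not measured, and its part in these medians was not tested.

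Promoters of the genes 10-fold apart held fewer CG dinucleotides than those of the genes studied. The median count of CG in the promoter sequence was 22 over the genes studied, 16 for those 10-fold higher in T24T, 11 for those 10-fold higher in EJ and also 11 over all promoters in the table. At 2-fold the gap was small, with medians of 20 for genes higher in T24T and 19.5 for genes higher in EJ. The letters TATAAA, searched on both strands, stood in 4.59% of the promoters of the genes studied, in 8.79% of 91 at 10-fold higher in T24T, in 17.1% of 41 at 10-fold higher in EJ and in 11.1% of all promoters in the table.

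Markers of other cells and of RNA selection were read in the same libraries. Of 14 leukocyte markers CD68, a lysosomal protein, alone reached the minimum, with 160 counts in EJ vector and 951 in T24T vector (216 and 1111 with circ). PTPRC, CD3D, CD3E, CD2, MS4A1 and LYZ had 0 counts in all 4 libraries, and the list summed to 10.6 CPM in EJ vector and 56.7 in T24T vector, nearly all of it CD68. Of 10 endothelial and stromal markers 4 reached the minimum, among them EGFL7 (35 and 141 counts) and ESAM (25 and 75 counts), 2-fold higher in T24T, while PDPN was at 0 in all 4 libraries and CLDN5 in all but T24T vector. That list summed to 13.2 and 22.5 CPM. Histone and small noncoding RNAs, which differ with how RNA was selected, had a median log2 ratio of 1.45 (0.83 in the circ pair). Of 14 at the minimum 8 were 2-fold higher in T24T, 0 in EJ and 6 within 2-fold. The lowest log2 ratio of the list was -0.72. Over all genes studied the 2-fold shares were 6.73% and 3.76%. RN7SK had 82 counts in EJ vector and 916 in T24T vector (54 and 297 with circ), RN7SL1 had 76 counts in EJ vector and 778 in T24T vector (82 and 229 with circ), and HIST1H1C had 1085 counts in EJ vector and 3093 in T24T vector (1233 and 4181 with circ). T24T vector was the library with the most RN7SK and RN7SL1, and the part of RNA selection in the other differences between the lines was not tested.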

How the data were processed

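RNA was measured by sequencing in 4 libraries, EJ and T24T with vector or with hsa_circ_0008399, 1 per group. TRIzol gave total RNA, per the labels' protocols. The submitters' processing notes name hg38, HISAT2 and Trimmomatic without versions. The counting tool, annotation, use of strand and pooling are not given in the sources used here.

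The authors deposited raw counts per gene and RPKM values (counts scaled by gene length and library total). Here counts were divided by library totals to give log2 ratios; RPKM served to set genes side by side. Genes needed 50 counts in the higher vector library, and 0 counts were set to 3 for folds. Gene types followed GENCODE release 29. With 1 library a side no p-value was computed between the vector libraries, no replicate could be left out, and intervals cover counting error only. Depth was 14703455 to 18057768 counts per library. The lines were tested over all 4 libraries with edgeR 4.0.16 (R 4.3.3, TMM, glmQLFit, transfection as a term, genes with 10 counts in 1 library and 20 in all, 30.49 prior degrees of freedom, common BCV of 0.07035, the square root of the dispersion) at an adjusted p of 0.05. DESeq2 1.42.0 and limma 3.58.1 were alternatives, and the edgeR script and the intervals were tested on simulated data. Intervals came from SciPy 1.17.1. The 39 gene lists and the genes studied were chosen with earlier results of these data known. Named are list members, the 15 genes per direction with the largest folds by the interval's lower end, the 20 on/off genes per direction with the most counts and the 10 genes per library with the highest RPKM; others are marked as chosen after their values were seen. Promoters came from RefSeq GRCh38.p14. All 4 sample columns of each table were used. Alternatives covered scaling, count minimum, prior count, RPKM, fold threshold, tool, the circ libraries, and, added after seeing the data, 1 gene per set of genes with shared exon bases and protein-coding genes alone. Some genes of the lists are counted in them but are not reported here by name.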

Additional observations from a re-analysis of the deposited data

Results flagged for a closer look

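The difference between the lines had opposite directions in the vector and circ libraries for 4 of the genes named, counting those at least 1.5-fold apart in the vector pair whose intervals excluded equality in both pairs. The size given for each is the log2 ratio of T24T over EJ in the circ pair minus that in the vector pair. It was 1.44 for ASNS, which had 1400 counts in EJ and 808 in T24T with vector and 1431 and 2548 with circ. For PSAT1 it was 1.30, with 1002 and 514 counts with vector and 1102 and 1590 with circ, and for PHGDH 1.06, with 4605 and 2544 and then 4671 and 6133. In these 3 genes of amino acid synthesis the EJ libraries were alike, and T24T vector was the lowest and T24T circ the highest of the 4. For CTGF, encoding a matrix-associated growth factor, it was 1.46, with 5409 and 2835 counts with vector and 2383 and 3900 with circ, and here the EJ libraries differed. The difference was not tested for any of the 4, since 4 libraries leave no degree of freedom for it.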

How the results depend on the processing

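The counts of genes 2-fold higher in T24T and in EJ were 919 and 465 with TMM scaling and 951 and 422 with RLE scaling, and 729 and 418 with 1 gene per set of shared exons. They depended more on the minimum and the threshold: 482 and 291 at 200 counts, 4018 and 4154 at 1 count, 1640 and 1675 at 1.5-fold, 354 and 122 at 4-fold, and 502 and 201 on log2(RPKM + 1), which shrinks low genes. On/off genes numbered 19 and 4 with 0 counts in the lower library, 134 and 52 at 20 counts and 10 and 5 at 200 counts, and in the circ libraries 63 with T24T high but 8 with EJ high. The edgeR counts of 3870 and 3445 became 1944 and 1248 without the transfection term and 1776 and 1441 with DESeq2; the cause was not tested. Medians of all genes were -0.06 with library totals, -0.03 with TMM and 0.01 with RLE. The log2 ratio turned in the circ libraries for CTGF (0.41), PCK2 (0.068) and PSAT1 (0.23) among genes 2-fold apart in the vector pair. In the circ libraries 15 of 37 list medians and 409 of 811 single ratios (beside the 3 that turned) moved by more than their counting error, against 1 and 30 with TMM. With RLE scaling 145 single ratios did. The fit with transfection as a term pairs the lines by transfection. No paired analysis was possible by replicate number because each group has 1 library, and for the same reason no replicate could be left out. Intervals are widest for genes with few counts in either library.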
